A study of Mus musculus with 4 samples.

Results

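ERV1 elements, the class I endogenous retroviruses of the mouse genome, were represented in the adult testis by 145 rows of the count table. They were chosen by name, as every repeat row whose label ends in LTR.ERV1, and they made up 72 sense and 73 antisense rows of 25745 features in all and of 1398 repeat rows. A sense row counts reads in the orientation of the repeat's consensus, and an antisense row counts reads on the opposite strand. The rows named 83 elements, of which 62 were listed on both strands, 10 on the sense strand alone and 11 on the antisense strand alone. Of the 83, 20 carried the suffix -int, which marks the internal part of a provirus, and the others were long terminal repeats (LTRs). Each row sums the reads over all genomic copies of an element, so its count grows with copy number and length as well as with transcription, and levels were not compared between elements per length. Another 4 rows labelled with an uncertain class (ERV1?) were outside the rule.

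Endogenous retroviruses are the remains of retroviruses that once infected the germline. A complete copy carries the gag, pol and env genes between a pair of identical LTRs, and the upstream LTR acts as the promoter. Recombination between the LTRs leaves a solitary LTR, the most common form in the genome, which can still start transcription or be read through from a neighboring gene. The ERV1 class is related to the gammaretroviruses and includes the murine leukemia viruses and the VL30 elements. In the germline such elements are held silent by DNA methylation, by histone H3 lysine 9 methylation recruited through KRAB zinc finger proteins and TRIM28, and by piRNAs.

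Nef-sp (2610020H08Rik) encodes an exonuclease of the testis, and the authors report exoribonuclease activity of the recombinant human protein. The series asked what loss of Nef-sp does to testis RNA. Total RNA of C57Bl/6J testis at postnatal day 60 was sequenced from Nef-sp-/- mice, which carry a 23 bp out-of-frame deletion on both alleles, and from Nef-sp+/- controls, with 2 libraries per genotype. The controls are heterozygous, so all 4 libraries come from animals with at least 1 deleted allele, from a line made with Cas9 nickase whose founders were bred to C57Bl/6J Rj males. The labels do not state whether replicates were prepared separately, so p-values measure the spread between these libraries. The table held 20659865 and 34442517 reads for the Nef-sp+/- replicates 1 and 2, and 21104999 and 20685289 for the Nef-sp-/- replicates. Normalized exon reads of Nef-sp were 1843 and 1693 in the controls and 407 and 497 in Nef-sp-/- testis, a log2 difference of -1.97 ± 0.092 (SE, edgeR adjusted p = 4.12e-06), which followed the labels. All germ, Sertoli and Leydig cell markers examined were detected, 7, 4 and 4 in number, and no marker of any list passed the test. Because whole testis was used, fewer cells of a type and less RNA per cell cannot be told apart.

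ERV1 transcripts formed a small and steady part of testis RNA. Sense reads numbered 207490 over the 4 libraries (44150 to 73434 per library), which was 0.214% of all reads in the table (0.212% to 0.219% per library). Antisense reads numbered 43871 (9011 to 14358 per library), or 0.0453% (0.0417% to 0.0520%). Among sense reads of all LTR elements, ERV1 took 22.1% ± 0.932 in Nef-sp+/- and 21.3% ± 1.08 in Nef-sp-/- testis (SD, n = 2 each). The libraries of the genotypes overlapped (exact permutation p = 0.667, two-sided), and with 2 libraries against 2 that test cannot go below 0.333. Among antisense LTR reads the ERV1 share was smaller, at 7.63% and 7.73% in the controls and 7.74% and 7.91% without Nef-sp, which did not overlap (exact permutation p = 0.333, the smallest possible).

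Sense reads were concentrated in few elements. MER90a, an LTR, alone held 25.3% of them (24.5% to 26.0% per library), the top 3 elements held 49.9%, and the top 8 held 71.6%. Of the 72 sense rows, 5 had at least 10000 reads over the 4 libraries, 23 had from 1000 to under 10000, 24 had from 100 to under 1000 and 20 had fewer than 100. The remaining names of the top 5 were MMVL30-int and RLTR6-int, internal sequences of VL30, RLTR6_Mm, the VL30 LTR, and RLTR4_MM-int, an internal sequence of the murine leukemia virus group. The VL30 names together made up 29.9% of ERV1 sense reads, and the leukemia virus names (RLTR4_MM-int, RLTR4_Mm and MuLV-int) 9.43%. The median absolute log2 difference between replicates of a tested sense row was 0.135 in Nef-sp+/- and 0.124 in Nef-sp-/- testis. The plot of normalized counts by library shows this spread for the elements with the most reads.

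**Figure D1:**
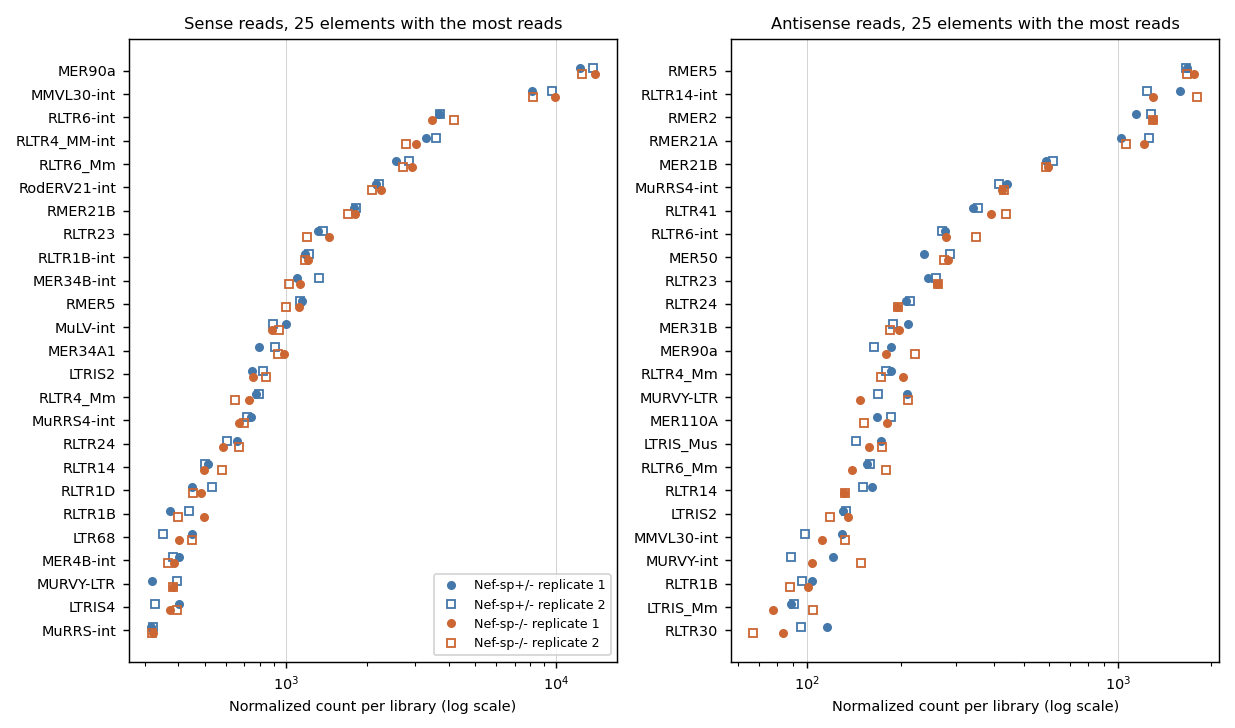
Normalized read counts (log axis) in each library of the ERV1 elements with the most reads on each strand, with Nef-sp+/- and Nef-sp-/- libraries as separate points. MER90a leads the sense strand with 12198 to 13878 normalized counts per library, and RMER5, the antisense row with the most reads over the 4 libraries, has 1659 to 1761.

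The comparison of genotypes asked whether loss of Nef-sp changed any ERV1 element. No ERV1 sense row passed the test at an adjusted p of 0.05. The test was the quasi-likelihood test of edgeR, with p-values adjusted by the Benjamini-Hochberg method. It covered all repeat rows of 1 strand, and 55 of the 72 ERV1 rows (99.9% of ERV1 sense reads) had enough reads to enter it. The smallest adjusted p was 0.446, and 1 row, RLTR4_MM-int, had an unadjusted p under 0.05. DESeq2 also called 0 ERV1 sense rows, with 1 at an unadjusted p under 0.05. Over all 578 repeat sense rows tested, 0.692% were called and 5.02% had an unadjusted p under 0.05. Log2 differences (Nef-sp-/- minus Nef-sp+/-) of the 55 rows ran from -0.92 to 0.27 with a median of 0.019, 30 above and 25 below 0. Over all 578 rows the median was 0.0054, and 51.7% lay above 0. In 12 of the 55, or 21.8%, both Nef-sp-/- libraries lay on one side of both Nef-sp+/- libraries (4 higher, 8 lower). Of all repeat sense rows tested, 29.6% did so, 14% higher and 15.6% lower.

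The intervals show what size of change could have been missed. The 95% interval of the difference stayed inside a doubling or a halving for 53 of the 55 sense rows and inside 1.5-fold for 41. The exceptions to the wider bound were MER67D and MER31B, with 48 and 45 reads in all, which were named after their intervals were seen. The other 17 sense rows, none with more than 38 reads over the 4 libraries, were too low to test.

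VL30 elements are defective retroviruses that encode no viral protein and are carried as RNA in leukemia virus particles. MMVL30-int had 8129.9 and 9591 normalized counts in the Nef-sp+/- replicates and 9868 and 8179 in the Nef-sp-/- replicates. Its libraries overlapped, with a log2 difference of 0.026 ± 0.105 (SE). The other internal sequence, RLTR6-int, had 3682 and 3708 against 3474 and 4172 (0.050 ± 0.093), and the LTR RLTR6_Mm had 2539 and 2846 against 2916 and 2699.5 (0.059 ± 0.087). None of the VL30 rows separated the genotypes on the sense strand. As a share of ERV1 sense reads, the VL30 names made up 28.8% and 30.1% in the controls and 30.5% and 30.2% in the Nef-sp-/- libraries, without overlap (exact permutation p = 0.333, the smallest possible). With 95% intervals that reached at most 0.25 on the log2 scale, a rise above 1.5-fold lay outside the interval of each.

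The leukemia virus group held the sense row with the smallest p. RLTR4_MM-int had 3299.7 and 3596 normalized counts in the controls, and 3018 and 2769 in Nef-sp-/- testis. Both Nef-sp-/- libraries lay below both controls, and the log2 difference was -0.25 ± 0.085 (SE, 95% interval -0.44 to -0.071). The unadjusted p of edgeR was 0.0102 and the adjusted p was 0.446, so this difference did not pass the test. The LTR of the same family, RLTR4_Mm, had 773 and 797 against 729 and 648, again without overlap (-0.19 ± 0.098, edgeR adjusted p = 0.998). The remaining member, MuLV-int, which carries the name of the leukemia virus itself, had 998 and 892 against 889 and 945 and showed overlapping groups (-0.042 ± 0.094). As a share of ERV1 sense reads the group made up 10.2% and 9.84% in the controls and 8.70% and 8.75% in the Nef-sp-/- libraries (exact permutation p = 0.333, the smallest possible).

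Some markers of cells outside the germline also had lower values in the Nef-sp-/- libraries, although none passed the test. The summed normalized counts of the 4 Leydig cell markers (Star, Cyp11a1, Cyp17a1 and Insl3) were 15847 and 15863 in the controls and 14925 and 12066 in Nef-sp-/- testis. Cyp11a1 and Cyp17a1 carried this difference (log2 differences of -0.35 and -0.27), while Star and Insl3 lay on the other side of 0 (0.080 and 0.18), both with overlapping libraries. Those of 2 peritubular myoid markers (Acta2 and Myh11) were 1261 and 1226 against 1082 and 1183, and those of 4 macrophage markers were 415 and 429 against 381 and 389. Lyz2 carried the macrophage difference (log2 difference of -0.16). Csf1r and Adgre1 lay on either side of 0 (-0.078 and 0.087), both with overlapping libraries, and Cd68 had too few reads to test. Sertoli cell markers summed to 19344 and 19262 against 18795 and 19946, and germ cell markers to 255228 and 310363 against 309921 and 306682, both sums with overlap. Within these lists, Sertoli Wt1 (log2 difference of -0.11) and germ cell Ddx4 (-0.054) lay lower without overlap. Germ cell Tnp1 lay higher without overlap (0.18), and the other markers of both lists overlapped. Of the 4 lymphocyte markers, only Ptprc was listed, with 1.41 to 4.60 normalized counts per library. Endothelial Cdh5 had 23.0 and 26.1 against 11.5 and 20.1. The erythroid markers Hbb-b1 and Alas2 summed to 232 and 213 against 241 and 254. Their log2 differences lay on opposite sides of 0, at -0.75 for Hbb-b1 and 0.23 for Alas2. Of 3 epididymis markers only Crisp1 was listed, with 5 reads in 1 library. The part of any of these cells in the RLTR4 values was not tested.

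MuRRS elements are retrovirus-related sequences of the mouse, and LTRIS names mark their LTRs. All 8 sense rows of this group were tested, 6 above and 2 below 0, with log2 differences from -0.087 to 0.15. MuRRS-int had 317 and 322 normalized counts in the controls and 322 and 319.7 in Nef-sp-/- testis (0.0064 ± 0.116). MuRRS4-int had 739 and 719.8 against 672 and 701 (-0.087 ± 0.094), without overlap. LTRIS2 had 747 and 825 against 755 and 839.9, and LTRIS_Mm, a low row, had 50.7 and 43.2 against 44.1 and 57.3.

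MURVY is a retrovirus amplified on the mouse Y chromosome. Its LTR had 320.1 and 396 sense counts in the controls and 382 and 381 in Nef-sp-/- testis (0.084 ± 0.127), whereas its internal sequence had 12 reads in all on that strand. RLTR1B-int had 1179 and 1220.1 against 1202 and 1174, and its LTR RLTR1B had 372 and 438 against 499 and 397. These rows overlapped between genotypes.

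The RMER and RodERV21 elements are rodent-specific. All 5 of their sense rows had log2 differences below 0 with TMM scaling, between -0.094 and -0.013, none past the test, and for RodERV21-int the sign depended on the scaling, at 0.0026 when libraries were scaled to the reads of all annotation categories. RodERV21-int, the internal sequence, had 2152.5 and 2202 normalized counts against 2247 and 2071. RMER21B, an LTR, had 1781 and 1809 against 1798 and 1699. RLTR23, the remaining member of the top 8, had 1317 and 1374.5 against 1436 and 1195.

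The older MER elements held 27 sense rows, 16 of them tested, with a median log2 difference of 0.055 (10 above and 6 below 0). MER90a had 12198 and 13689 normalized counts against 13878 and 12475, an overlap with a difference of 0.025 ± 0.090. MER52-int, an internal sequence, had 337 and 320.4 against 281 and 283 (-0.22 ± 0.119), without overlap. MER31B had the lowest fold difference, -0.92 ± 0.469, from 45 reads in all (14.7 and 13.9 against 7.16 and 7.72 normalized counts), and its 95% interval ran from -1.93 to 0.094. In the opposite direction, MMERGLN-int, the internal sequence of an element named for its glutamine tRNA primer, had 256 and 285 against 323 and 319 (0.24 ± 0.122). The adjusted p of each of these rows was 0.998 in edgeR. Besides them, 10 numbered LTR rows held 1.37% of ERV1 sense reads.

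**Figure D2:**
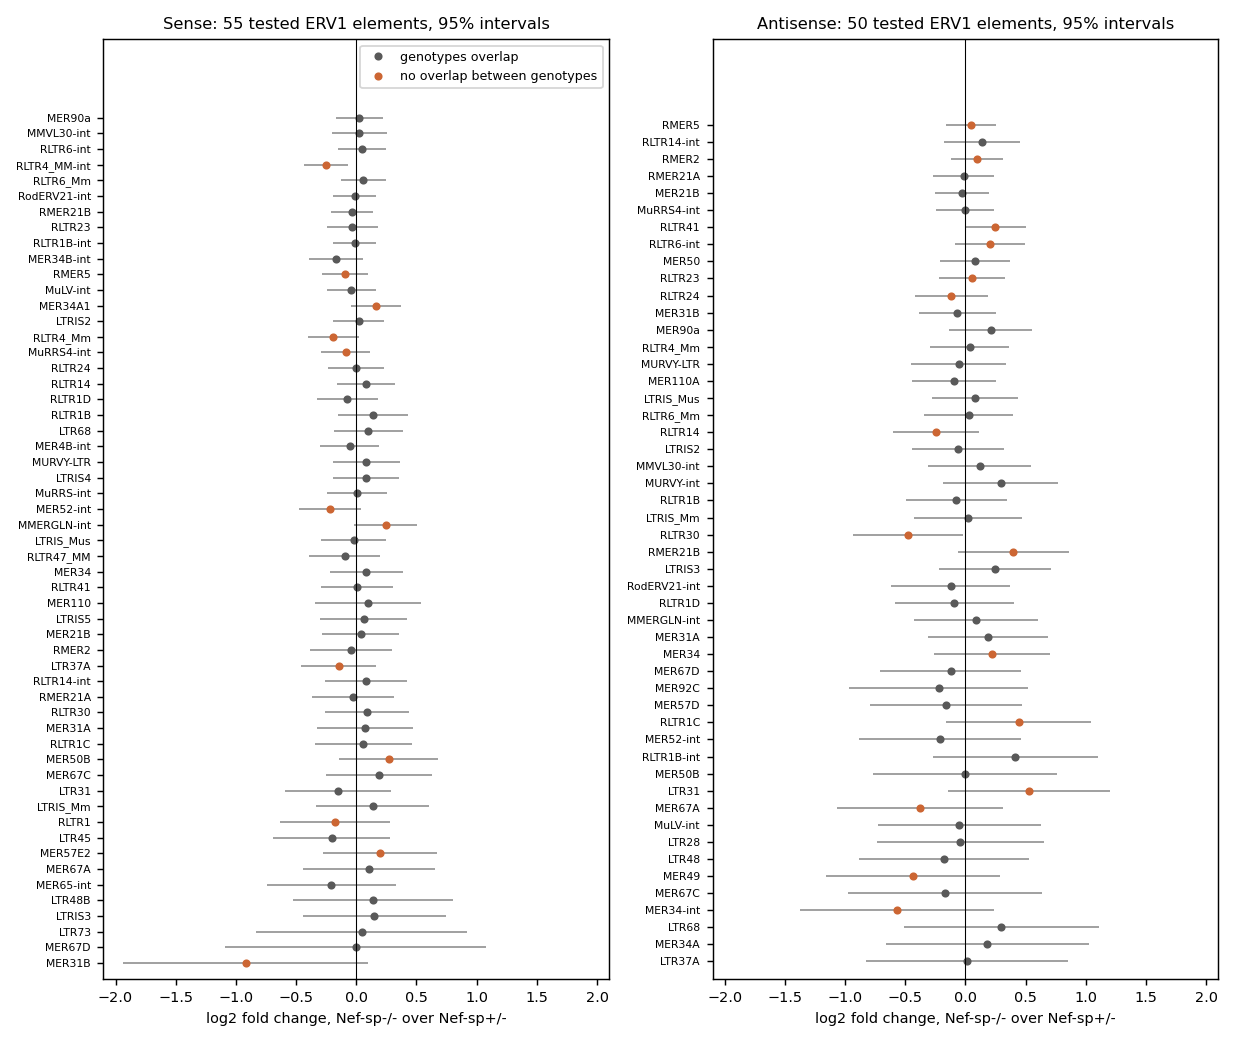
Log2 difference (Nef-sp-/- minus Nef-sp+/-) of every tested ERV1 row with its 95% interval, 55 sense rows on the left and 50 antisense rows on the right, ordered by total reads with the most abundant at the top. Intervals widen toward the low rows at the bottom, and RLTR4_MM-int (-0.44 to -0.071) and RLTR30 antisense (-0.93 to -0.022) are the rows whose interval leaves out 0.

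Antisense reads came largely from other elements than sense reads. RMER5, a rodent LTR, led with 15.4% of ERV1 antisense reads, and the top 4 rows (RMER5, RLTR14-int, RMER2 and RMER21A) held 50.6%. None of these was among the 8 elements with the most sense reads. The RMER and RodERV21 group held 38.7% of antisense reads against 10.2% of sense reads, while the VL30 names held 5.18% against 29.9%. No antisense row reached 10000 reads, 10 had at least 1000, 29 had from 100 to under 1000 and 34 had fewer than 100.

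No antisense row passed the test. It covered 50 of the 73 rows (99.3% of ERV1 antisense reads). The smallest adjusted p in edgeR was 0.9996, 1 row (RLTR30) had an unadjusted p under 0.05, and DESeq2 called 0, with 0 at an unadjusted p under 0.05. Of all 553 repeat antisense rows tested, 0% were called and 2.35% had an unadjusted p under 0.05. Log2 differences ran from -0.57 to 0.53 with a median of 0.0042, 25 above and 25 below 0, where 54.6% of all repeat antisense rows lay above 0. The split was 31 above and 19 below, with a median of 0.062, when libraries were scaled to the reads of all annotation categories, which moved the median of all antisense repeat rows from 0.0090 to 0.051. The groups did not overlap in 15 of the 50 rows, or 30% (9 higher and 6 lower), against 24.2% of all repeat antisense rows (11.4% higher and 12.8% lower). The 95% interval stayed inside a doubling or a halving for 42 of the 50 and inside 1.5-fold for 22, so the antisense data were less precise. The 23 untested rows had at most 38 reads.

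RMER5 had 1664 and 1659 normalized antisense counts in the controls and 1761 and 1669.6 in Nef-sp-/- testis, a difference of 0.046 ± 0.098 (SE) with narrowly separate groups. RLTR14-int, an internal sequence, varied more between replicates than between genotypes, with 1586 and 1241 against 1299 and 1799. RMER2 had 1147 and 1281 against 1299 and 1295.5, and RMER21A had 1026 and 1262 against 1211 and 1059.5. MER21B, with 587 and 619.7 against 596 and 588, and MuRRS4-int, with 439.7 and 414 against 422 and 428, overlapped between genotypes.

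RLTR41, an LTR, had the smallest p among the 8 antisense rows with the most reads, with 341 and 354 normalized counts in the controls and 391 and 435 in Nef-sp-/- testis (0.25 ± 0.117, 95% interval -0.0017 to 0.50). RLTR6-int had 278 and 272 against 280.4 and 349.6, so its separation rested on a small gap. RLTR30 had 115 and 95.2 against 83.7 and 67.0, a difference of -0.48 ± 0.212 with an unadjusted edgeR p of 0.0411. RMER21B had 74.4 and 65.2 against 81.3 and 101 (0.40 ± 0.214), RLTR1C had 23.3 and 29.2 against 38.8 and 34.0 (0.44 ± 0.281), and LTR31 had 17.8 and 21.7 against 32.8 and 25.5 (0.53 ± 0.312). All of them had an adjusted p above 0.99 in edgeR.

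Of the leukemia virus names, RLTR4_Mm had 187 and 179 antisense counts against 203 and 172, with overlap, and RLTR4_MM-int had 29 antisense reads in all and was not tested. MMVL30-int had 129 and 98.2 against 112 and 132. MURVY-int had 121 and 88.4 antisense counts against 103 and 149. Of the 29 antisense rows of MER elements, 17 were tested. Their median log2 difference was -0.095 (5 above and 12 below 0), opposite in sign to the median of the sense MER rows.

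The balance between strands differed widely between ERV1 elements. Over all members 17.5% of reads were antisense (95% Wilson interval 17.3% to 17.6%, counting error only), with 18.1% and 16.4% in the controls and 16.8% and 19.2% in Nef-sp-/- libraries (exact permutation p = 0.667). Among the 39 elements listed on both strands with at least 500 reads in all, the median antisense share was 16.9%. In 12 the share was under 5%, and in 9 it was above 50%. Of these 39 elements, 38 stayed on the same side of 50% in all 4 libraries, and the share ranged over a median of 2.73 percentage points between libraries. The exception was RLTR30, at 49.7% over all libraries.

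The elements with the lowest antisense shares were RLTR4_MM-int with 0.225% (95% Wilson interval 0.156% to 0.322%, counting error only), LTRIS4 with 0.674% and MMVL30-int with 1.27%. Single libraries ran from 0.142% to 0.397% for RLTR4_MM-int. MER90a, the most abundant element, had 1.40%. At the other end stood MER50 with 98.0%, MER31B with 94.5% and RLTR14-int with 91.8%. The other elements above 50% were RMER21A (91.5%), RMER2 (89.7%), MER21B (79.5%), RLTR41 (69.0%), LTRIS_Mm (65.3%) and RMER5 (60.5%). Of these 9, 8 were LTRs and 1, RLTR14-int, was an internal sequence, where 28 of the 39 ranked elements were LTRs and 11 internal sequences.

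**Figure D3:**
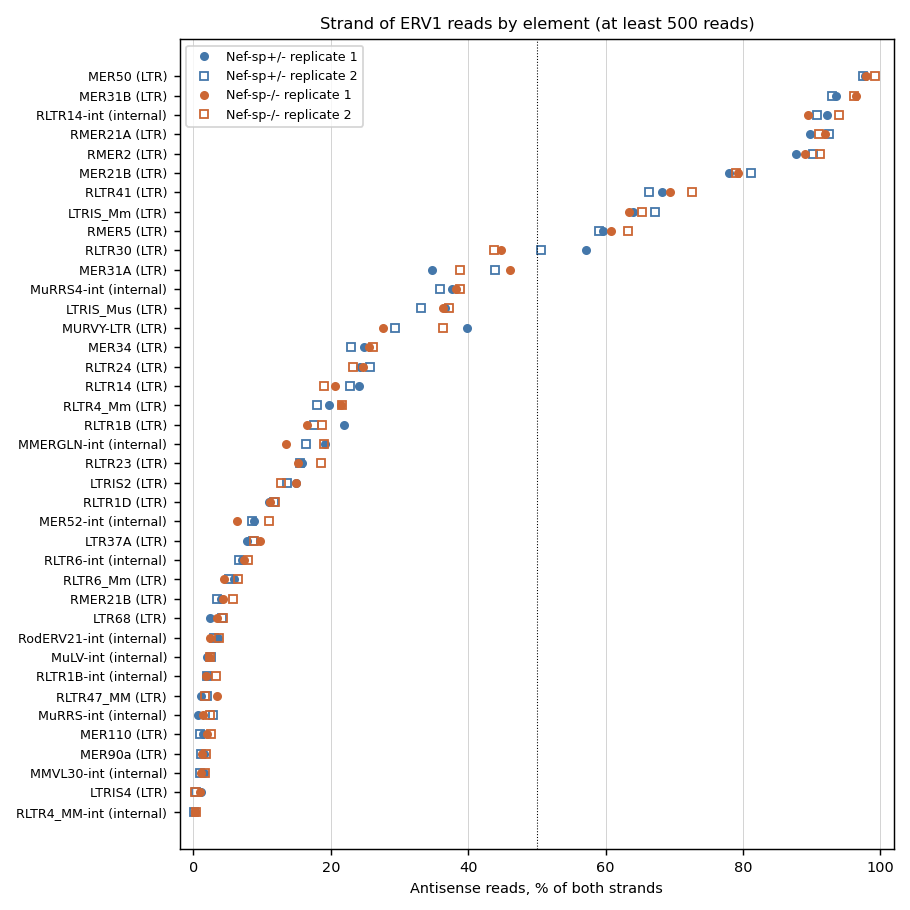
Antisense share (percent of the reads of both strands) of the 39 ERV1 elements listed on both strands with at least 500 reads, one row per element, with a point for each library. The shares run from 0.225% for RLTR4_MM-int to 98.0% for MER50, and the points of one element lie close together compared with that range.

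Elements listed on a single strand were not in that ranking. On the sense strand alone, MER34B-int had 4659 reads, MER34A1 3621, MER4B-int 1533 and LTRIS5 632, each with no antisense row, where the table lists rows from 5 reads over the 4 libraries. On the antisense strand alone, MER110A had 691 reads and MER34-int 66. The internal sequences MER34B-int and MER34-int of the MER34 names were listed on opposite strands.

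Internal sequences and their own LTRs did not always share a strand. Over all ERV1 reads 10.1% of those in internal sequences and 22.7% of those in LTRs were antisense. RLTR4_MM-int had 0.225% antisense reads and its LTR RLTR4_Mm had 19.8%. RLTR1B-int had 2.23% and RLTR1B 18.5%. Among the VL30 names, RLTR6-int had 7.24% and the LTR RLTR6_Mm 5.45%, while the other internal sequence, MMVL30-int, had 1.27%. The internal sequence had the larger share in the remaining pairs, with 91.8% in RLTR14-int against 21.7% in RLTR14, and 97.4% in MURVY-int against 33.0% in MURVY-LTR.

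To ask whether the difference between genotypes depended on the strand, the sense and antisense counts of 40 ERV1 elements were fitted together. In this edgeR fit 0 of the 40 had an adjusted p under 0.05 (smallest 0.998), and 2 had an unadjusted p under 0.05. These were RMER21B and RLTR30. The genotype log2 difference in antisense minus that in sense was 0.44 ± 0.194 (SE) for RMER21B and -0.56 ± 0.251 for RLTR30. Of all 478 repeat elements fitted, 0% were called and 3.56% had an unadjusted p under 0.05. DESeq2 was not run for this fit.

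Compared with the other LTR classes, ERV1 had the lowest antisense share. The antisense share over all 4 libraries was 17.5% for ERV1, 34.1% for ERVK, 45.3% for ERVL and 50.9% for MaLR. ERV1 was lower in 4 of 4 libraries, by a mean of 16.5 ± 1.07 percentage points against ERVK, 27.8 ± 0.627 against ERVL and 33.3 ± 0.811 against MaLR (SD, n = 4). The exact sign-flip permutation test over libraries gave p = 0.125 for each, the smallest that 4 libraries allow. In the comparison of genotypes on the sense strand, the median log2 difference was 0.019 for 55 ERV1 rows, 0.054 for 127 ERVK rows, -0.022 for 49 ERVL rows and 0.025 for 79 MaLR rows. The called rows were 0, 3, 0 and 0, and differences between these classes were not tested. The calls depended on the scaling, as 0 repeat sense rows of any class were called when libraries were scaled to the reads of all annotation categories.

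**Figure D4:**
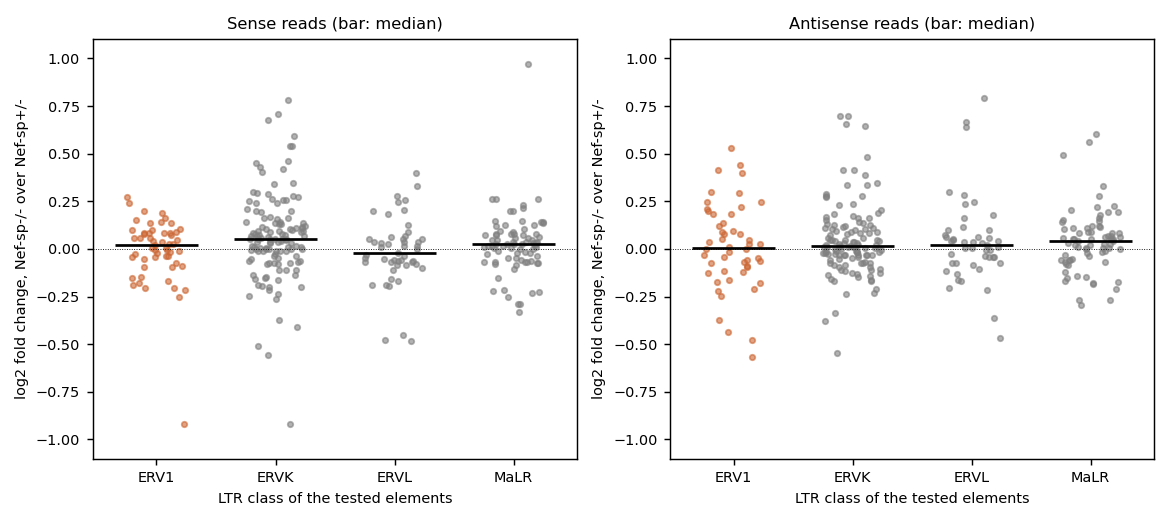
Log2 difference (Nef-sp-/- minus Nef-sp+/-) of each tested row of the ERV1, ERVK, ERVL and MaLR classes, sense and antisense, with the median of each class marked. The sense medians lie between -0.022 and 0.054.

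Host genes that silence or restrict endogenous retroviruses were examined as exon reads in sense. Of a list of 44 such genes, 40 were in the table and 36 had enough reads, and 0 of these passed the test over 10728 genes in edgeR (smallest adjusted p = 0.954), with 2 at an unadjusted p under 0.05. DESeq2 also called 0. The background was 0.00932% of genes called and 4.80% at an unadjusted p under 0.05. The median log2 difference of the list was -0.055, with 25 genes below and 11 above 0. In 12 of the 36 the genotypes did not overlap (10 lower, 2 higher), where 34.5% of all genes did not overlap (18.1% lower, 16.4% higher) and 49.9% lay above 0.

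The genes with the smallest p were Adar, Uhrf1 and Atf7ip. Adar, which edits double-stranded RNA, had 27.6 and 23.9 normalized counts in the controls and 11.5 and 13.0 in Nef-sp-/- testis, from 79 reads in all (-1.04 ± 0.317). Uhrf1, which brings the maintenance methyltransferase DNMT1 to replicated DNA, had 2155 and 1967 against 1837 and 1860.1 (-0.15 ± 0.065). Atf7ip, a partner of the histone methyltransferase SETDB1, had 908 and 851 against 763 and 811 (-0.16 ± 0.071). All 3 lay lower in both Nef-sp-/- libraries without overlap, and none passed the adjustment (adjusted p = 0.954 in edgeR).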

How the data were processed

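The authors sequenced ribosomal RNA-depleted total RNA of testis with a stranded kit (50 cycles). They kept reads that matched mm9 perfectly with in-house tools and deposited raw read counts per feature in 10 annotation categories. The table lists features with at least 5 reads over the 4 libraries, and the treatment of reads with several genomic matches is not given in the sources used here. The deposited table also holds the authors' own mean normalized signal (baseMean), log2 fold changes and p-values (raw and adjusted) from DESeq2. These columns were not used.

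The deposited counts were tested per category with edgeR 4.0.16 (R 4.3.3): TMM, filterByExpr with a minimum count of 10, glmQLFit and glmQLFTest, Benjamini-Hochberg adjustment over the category, and a threshold of 0.05. DESeq2 1.42.0 was an alternative. To obtain normalized counts, each count was divided by the library's effective size over the mean effective size, and SDs are over 2 libraries. Intervals are 95%. Tested sense rows held 45 to 52489 reads, and the largest standard errors were in the rows with the fewest reads. The scripts were tested on simulated data. The dependence of the genotype difference on the strand was fitted with library as a block. Shares were compared by exact permutation over libraries.

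Elements named were the 8 with the most reads per strand, any past the threshold, the 5 with the smallest p, a list of leukemia virus and VL30 related names, and the 3 highest and 3 lowest antisense shares among elements with at least 500 reads. Outside this rule, MER67D, RLTR14 and some elements listed on a single strand were also named. Of the silencing genes, the 3 with the smallest p were named. The members and lists were chosen with earlier results of these data known. The table gives no coordinates or sequences of repeats, so none are shown.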

Additional observations from a re-analysis of the deposited data

How the results depend on the processing

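No ERV1 row passed the threshold in edgeR under another normalization, another library size, removal of structural RNA and satellites, no filter, DESeq2 or any left-out library. The lowest adjusted p among these was 0.0595, for RLTR4_MM-int without Nef-sp-/- replicate 1, and its log2 difference stayed between -0.32 and -0.19 with a library left out. Replicate numbers do not mark shared animals or batches in the labels, and same-numbered libraries did not deviate together (correlation of deviations -0.199 sense and -0.307 antisense). With the replicate number as a block, 0 ERV1 rows were called on either strand. With the numbers crossed, an alternative chosen after seeing the data, 1 ERV1 sense row (RLTR4_MM-int) of 14 repeat sense rows and 0 antisense rows were called. Without the expression filter, 34 sense rows lay above and 38 below 0. Of 554 values recomputed under alternatives, 49 reversed in sign, all of them of differences that did not pass the test, and the cause was not tested. Among ERV1 rows only the named elements were followed singly, so sign changes of the other tested rows are not counted or listed here. With libraries scaled to all categories, the log2 differences were 0.0026 for RodERV21-int and 0.0033 for RLTR1B-int (sense), and 0.028 for RMER21A, 0.012 for MER21B, 0.035 for MuRRS4-int and 0.0074 for MuLV-int (antisense). MuRRS4-int antisense was also 0.0017 with DESeq2 size factors and 0.00076 in DESeq2. Fewer intervals stayed inside 1.5-fold on the antisense strand (22 of 50) than on the sense strand (41 of 55). With each library left out in turn, the sense log2 differences of named elements that changed sign ranged as follows: MER90a -0.056 to 0.11, MMVL30-int -0.12 to 0.15, RLTR6-int -0.094 to 0.17, RLTR6_Mm -0.013 to 0.14, RodERV21-int -0.074 to 0.0399, RLTR23 -0.17 to 0.087, RLTR1B-int -0.034 to 0.0088, MuLV-int -0.13 to 0.046, LTRIS2 -0.066 to 0.092, RLTR1B -0.038 to 0.29, MURVY-LTR -0.046 to 0.25, LTRIS4 -0.067 to 0.24, MuRRS-int -0.00098 to 0.016, RLTR14-int -0.086 to 0.23 and LTRIS_Mm -0.073 to 0.31. With each library left out in turn, the antisense log2 differences of named elements that changed sign ranged as follows: RLTR14-int -0.12 to 0.35, RMER21A -0.15 to 0.13, MuRRS4-int -0.059 to 0.041, MER50 -0.041 to 0.22, MER31B -0.16 to 0.011, RLTR4_Mm -0.087 to 0.15, MURVY-LTR -0.34 to 0.17, RLTR6_Mm -0.17 to 0.19, LTRIS2 -0.16 to 0.0304, MMVL30-int -0.0899 to 0.31, RLTR1B -0.17 to 0.022, LTRIS_Mm -0.21 to 0.21, RLTR1B-int -0.039 to 0.73 and MuLV-int -0.15 to 0.095. The difference in the ERV1 share of LTR reads ranged from -1.55 to -0.0245 percentage points in sense and from 0.0586 to 0.232 in antisense. The difference in the antisense share of ERV1 reads ranged from -0.426 to 2.01 percentage points, below 0 without Nef-sp+/- replicate 2 or Nef-sp-/- replicate 2.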
